A study of Helianthus annuus with 24 samples.

Results

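MYB factors are DNA-binding proteins built on short MYB repeats. In plants the largest class, R2R3, carries a pair of these repeats and controls phenylpropanoid synthesis, epidermal cell fate, stress responses and the maturation of floral organs. Proteins with a single repeat, and the related GARP proteins, act in leaf growth, light response and nutrient sensing. A floral nectary is a small secretory organ whose maturation in Arabidopsis depends on MYB21, which is left out here together with the MYB-like clock proteins.

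The 45 contigs described here are those of the sunflower (Helianthus annuus) transcript assembly whose best Arabidopsis match is described in the deposited table as a MYB domain, myb-like or MYB transcription protein. They are 45 of 42063 contigs, or 0.107%, and they have 26 distinct Arabidopsis matches. With the matches left out by rule, 48 contigs carry such a description, and the other 3 match MYB21. By class, 21 contigs (13 matches) are R2R3 factors, 6 (3 matches) have a single repeat, 8 (4 matches) are GARP proteins, 7 (4 matches) are chromatin or co-factor proteins with a MYB-like domain, and 3 (2 matches) are named myb-like protein X. A contig is called below by its Arabidopsis match, the roles given are those known from Arabidopsis, and contigs keep their Helianthus numbers from the table. Several contigs can share a match, and reads of near-identical copies could be split between them. No contig lengths are used here, so levels are compared between libraries and not between contigs.

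RNA was sequenced from hand-dissected floral nectaries of 7 sunflower lines and from leaf, with 3 libraries in each of 8 groups. The low nectar class holds lines 412 and 441, the medium class 452 and 456, and the high class 434 and 467. All 6 are interspecific crosses, and the remaining nectary line, ER, is a maintainer line with no nectar class. Plants were about 40 days old and grew in a greenhouse at 23 °C with 16 h of light and 8 h of dark, and nectaries were taken 4 to 8 h after dawn from mature, secreting florets. Each nectary library pooled about 50 nectaries from different plants, so the p-values below measure the spread between such pools. Leaf carries the label of line 434, but the series description names ER as its source, and the comparison with leaf was therefore also run with ER. Values are given in normalized units, scaled by the authors to the upper quartile of each library.

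Library totals ran from 10.46 to 16.97 M normalized units, and the estimated depth from 8.45 to 16.09 M reads, so that 1 read was worth 0.678 to 1.5 units. Summed markers of leaf mesophyll were 580966 to 893250 units in leaf and 155 to 6221 in the 21 nectary libraries. The nectary markers CRC and SWEET9 summed to 117 to 148 units in leaf and 26524 to 224460 in nectary. In line 456, replicate 2 held the mesophyll sum of 6221 and a nectary marker sum of 32730, against 92349 and 94720 in the other two pools. Replicate 3 of line 452 had 3903 contigs at 0, against 1291 to 2620 in the other 23 libraries. In pooled tissue, fewer cells of a type and less RNA per cell cannot be told apart.

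**Figure D1:**
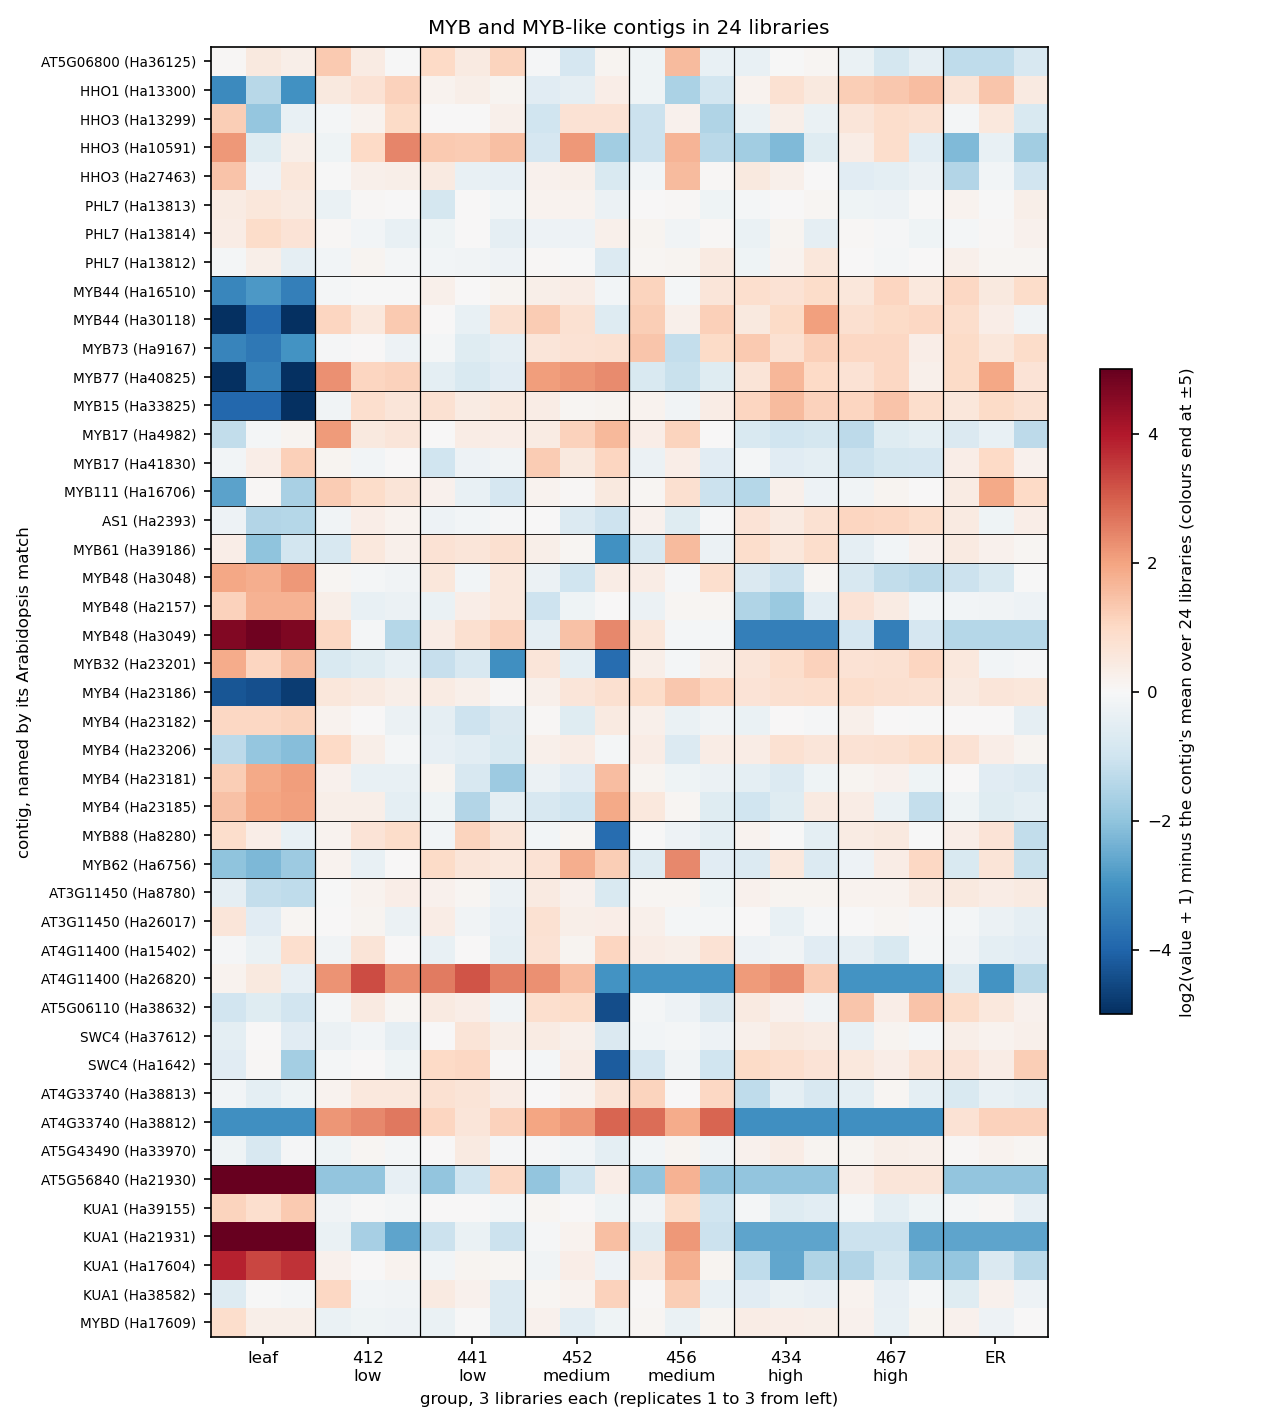
Each row is 1 of the 45 MYB and MYB-like contigs (Ha stands for the Helianthus prefix) and each column 1 of 24 libraries, 3 per group. Colours give log2(value + 1) minus the contig's mean over the 24 libraries. The 4 contigs of MYB44, MYB73 and MYB77 are lowest in leaf, while KUA1 (Helianthus21931 and Helianthus17604), AT5G56840 and MYB48 (Helianthus3049) are highest there.

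The nectary of line 434 was first compared with leaf. The contigs matching MYB44, MYB73 and MYB77, 1 contig matching MYB4 and the MYB15 contig stood 4.01 to 6.35 log2 units higher in nectary. KUA1 contigs Helianthus21931 and Helianthus17604, AT5G56840 and all 3 MYB48 contigs were lower. Of the 45 contigs, 26 (57.8%) were called at an adjusted p under 0.05, beside 61.6% of all 39981 contigs tested, and 13 were higher (39.6% of all contigs) and 13 lower (22% of all contigs). The share called was thus close to that of all contigs, and the median difference was -0.18 log2 units for the MYB contigs and 0.476 for all contigs. Libraries of both groups did not overlap for 30 of the 45, against 71% of all contigs. All 45 passed the minimum mean of 10 units over the 24 libraries, but KUA1 Helianthus21931 and AT5G56840 passed only through leaf, where they had to be high.

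The R2R3 class supplied 9 of the higher and 7 of the lower contigs. All 4 contigs of subgroup 22 were higher in nectary. This subgroup acts in responses to abscisic acid and auxin, MYB44 in stomatal closure, MYB73 in salt stress and MYB77 in lateral root growth together with auxin response factors. The more abundant MYB44 contig, Helianthus16510, had values of 153, 203 and 137 units in leaf and 2689, 2442 and 2786 in the nectary of line 434. Every nectary library of every line, down to 1362 units in line 452, lay above every leaf library. Means were 2639 ± 177 units in line 434 and 164.3 ± 34.4 in leaf (SD, n = 3 each). The log2 difference was 4.01 ± 0.24 (SE), which is 16.2-fold on that scale, with an adjusted p of 1.4397e-11 from limma. The other MYB44 contig, Helianthus30118, was nearly missing from leaf, at 0, 2 and 0 units, and stood at 61, 85 and 179 in line 434.

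MYB73 (Helianthus9167) had 43, 35 and 54 units in leaf and 1056, 740 and 978 in the nectary of line 434. The groups did not overlap, and the lowest nectary value of any line, 187 units in replicate 2 of line 456, was still above leaf. The difference was 4.37 ± 0.41 log2 units (SE, adjusted p = 1.6936e-08), or 20.6-fold on that scale. MYB77 (Helianthus40825) was listed at 0, 6 and 0 units in leaf and at 112, 228 and 147 in line 434. Its lowest value in any nectary library was 33 units, in line 456. Differences of contigs this low in leaf depend on the constant added before taking logs. For MYB77 the difference was 6.35 log2 units with a constant of 1 and 4.63 with 5, and for MYB44 Helianthus30118 it was 6.10 and 4.20. Both passed the test with either constant.

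The factors of subgroup 4, MYB4 and MYB32, repress genes of phenylpropanoid and lignin synthesis. Their 6 contigs did not share a direction, with 2 higher in nectary, 3 lower and 1 not called. MYB4 contig Helianthus23186 had 48, 44 and 34 units in leaf and 1519, 1655 and 1680 in the nectary of line 434. The groups did not overlap, and over the 21 nectary libraries it ranged from 986 to 2414 units. The difference was 5.25 ± 0.16 log2 units (SE, adjusted p = 4.6715e-16), or 38-fold on that scale. MYB4 contig Helianthus23206 was also higher in nectary, at 225 ± 30.1 against 43.3 ± 13.8 units (SD, n = 3 each), a difference of 2.38 log2 units (adjusted p = 8.4365e-07).

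A further MYB4 contig, Helianthus23182, went the opposite way. It had 539, 537 and 571 units in leaf and 209, 263 and 248 in line 434, and was lower in nectary, with a log2 difference of -1.20 (adjusted p = 0.00015747). All 21 nectary libraries lay below leaf, the highest at 355 units in line 452. The contigs Helianthus23181 and Helianthus23185, at 70.7 and 49.3 units on average in leaf, were lower in nectary as well, with log2 differences of -2.19 and -2.22 (adjusted p = 0.00075647 and 0.0044887). All 5 MYB4 contigs have the same UniRef match in the deposited table, so how reads were divided among them bears on each value. Summed over the 5 contigs, MYB4 was higher in nectary by 1.48 log2 units (adjusted p = 2.488e-09). MYB32 (Helianthus23201) did not pass the test, with 154, 87 and 121 units in leaf and 64, 77 and 92 in line 434. With the mean of the 7 nectary lines MYB32 was called lower than in leaf (-1.699 log2 units, adjusted p = 0.009313). With ER it was not called (-1.377 log2 units, adjusted p = 0.1).

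MYB15, which acts in cold response and in defence lignification, was close to 0 in leaf. Its contig Helianthus33825 had 2, 2 and 0 units there and 96, 138 and 102 in the nectary of line 434, and no nectary library fell under 40. The difference was 5.75 log2 units with a constant of 1 (adjusted p = 3.9517e-11) and 4.21 with 5. AS1 (Helianthus2393), which represses KNOX genes in leaf primordia and sets leaf polarity, had 1518, 661 and 676 units in leaf and 2922, 2502 and 3046 in line 434. These groups did not overlap, although leaf replicate 1 had a value more like those of lines 412 and 441. The difference was 1.68 ± 0.29 log2 units (SE, adjusted p = 5.5003e-05).

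MYB62, which acts in the response to phosphate starvation and in gibberellin synthesis, was called higher in nectary with less certainty. Its contig Helianthus6756 had 110, 94 and 127 units in leaf and 277, 646 and 279 in line 434. The groups did not overlap, and the difference was 1.74 log2 units (adjusted p = 0.01718). It no longer passed without replicate 2 of line 434 (1.34, adjusted p = 0.09199), without leaf replicate 2 (1.63, adjusted p = 0.05194) or after rescaling by median ratio (1.27). MYB111, an activator of flavonol synthesis, overlapped between the groups, with 23, 162 and 50 units in leaf and 56, 185 and 128 in line 434 (0.93 log2 units, adjusted p = 0.16385). With the ER nectary in place of line 434, at 206, 574 and 306 units, MYB111 was called higher by 2.51 log2 units (adjusted p = 0.0007265). Of the remaining R2R3 contigs, MYB61 (Helianthus39186), a regulator of secondary walls, had 30, 5 and 12 units in leaf and 44, 35 and 44 in line 434, and missed the threshold (1.64 log2 units, adjusted p = 0.056191). MYB61 was called higher with a constant of 5 (1.338, adjusted p = 0.03893) and without leaf replicate 1 (2.242, adjusted p = 0.01852). Sums over matches also called it (1.638, adjusted p = 0.04733). With ER (1.104), the mean of the 7 lines (0.987) and rescaling by median ratio (1.201) it was not called. MYB88 (Helianthus8280), which limits divisions in the stomatal lineage, had 10 to 25 units in leaf and 9 to 15 in line 434 and was not called. Of the MYB17 contigs, Helianthus41830 was called lower in nectary, with overlap (-0.82 log2 units, adjusted p = 0.037747), but this call was lost with the ER nectary (0.066, adjusted p = 0.8721) and with the mean of the 7 lines (-0.516, adjusted p = 0.07263). Helianthus4982 was not called.

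**Figure D2:**
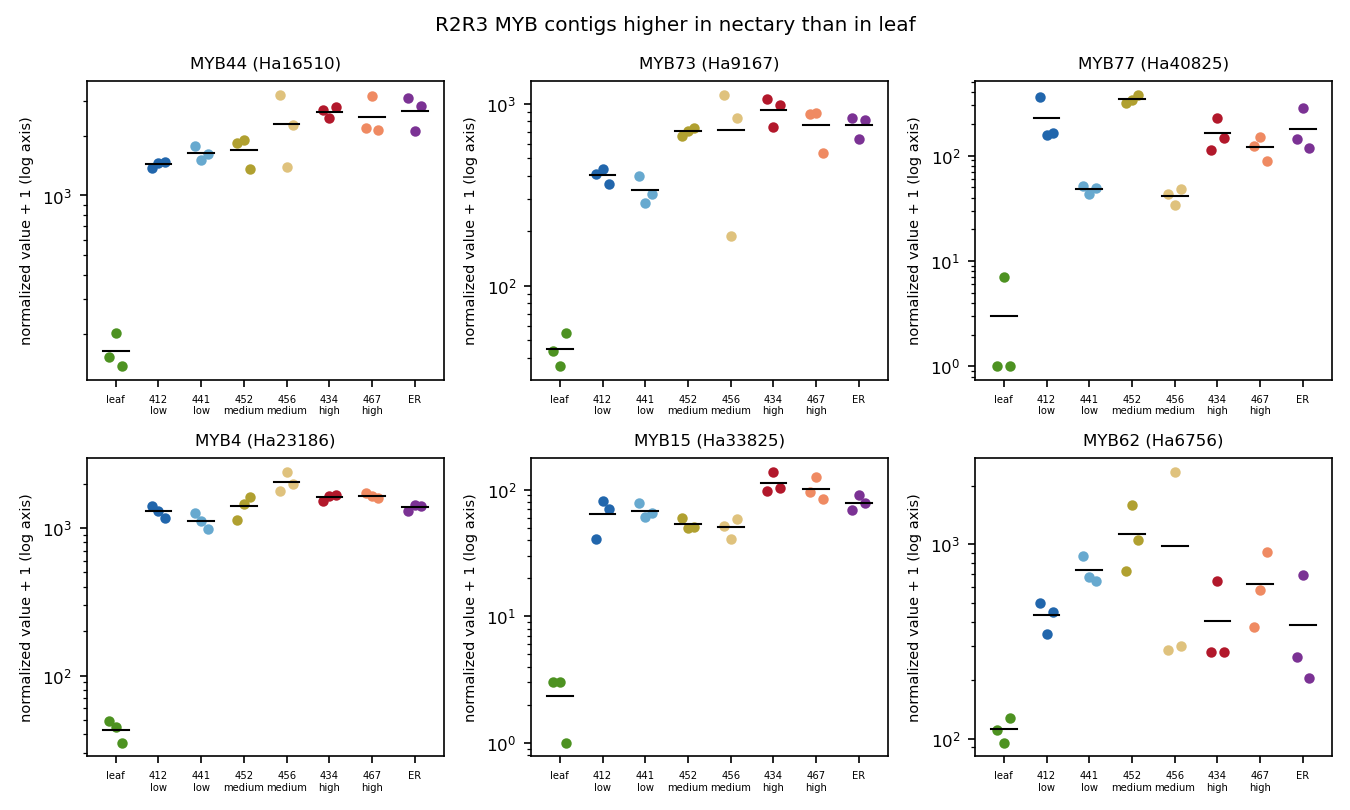
Points are the 3 libraries of each group and bars their means, as normalized value + 1 on a log axis, for 6 R2R3 contigs (Ha, Helianthus). In MYB44, MYB73, MYB77, MYB4 (Helianthus23186) and MYB15, every nectary library lies above every leaf library. MYB62 is also lowest in leaf, but its pools within lines 434 and 456 are far apart.

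Of the 6 single-repeat contigs, KUA1 Helianthus21931 and AT5G56840 passed the minimum mean only through leaf. Of the other 4 contigs, 2 were called lower in nectary, both of KUA1, beside 22% of all contigs. KUA1 represses peroxidase genes and promotes cell expansion in leaves. Its contig Helianthus21931 had 2394, 1885 and 2913 units in leaf, was listed at 0 in all 3 libraries of line 434 and in all 3 of ER, and reached at most 27 units in any nectary library. KUA1 contig Helianthus17604 had 1566, 1117 and 1337 units in leaf and 44, 17 and 38 in line 434 (-5.39 ± 0.39 log2 units (SE), adjusted p = 3.7549e-10). A smaller difference was seen for KUA1 contig Helianthus39155, at 948 ± 155 units in leaf and 335.3 ± 72.4 in line 434 (SD, n = 3 each; -1.5 log2 units, adjusted p = 0.00022793). KUA1 contig Helianthus38582, at 97.3 units in leaf and 84.3 in line 434, did not pass the test.

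AT5G56840, a single-repeat relative of KUA1, followed contig Helianthus21931. It had 698, 411 and 630 units in leaf, 0 in all libraries of line 434, and at most 12 in any nectary library. MYBD, which promotes anthocyanin accumulation in light, was abundant in both tissues. It had 2132, 1452 and 1452 units in leaf and 1507, 1468 and 1445 in line 434, which overlapped. Its difference of -0.16 log2 units (adjusted p = 0.51991) moved to 0.021 without leaf replicate 1. MYBD was called lower in nectary with ER (-0.507, adjusted p = 0.04249), with the mean of the 7 lines (-0.567, adjusted p = 0.003922) and after rescaling by median ratio (-0.635, adjusted p = 0.01424).

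All 3 contigs of MYB48, an R2R3 factor, were lower in nectary. Contig Helianthus3049 had 264, 318 and 273 units in leaf and was listed at 0 in every library of line 434, while other lines had up to 56 units. Contig Helianthus3048 had 445, 406 and 522 units in leaf and 70, 55 and 125 in line 434 (-2.52 log2 units, adjusted p = 4.7221e-06). Contig Helianthus2157 had 112, 172 and 171 units in leaf and 17, 13 and 35 in line 434 (-2.84 log2 units, adjusted p = 1.1935e-06). In none of the 3 did a library of line 434 reach the lowest leaf library.

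**Figure D3:**
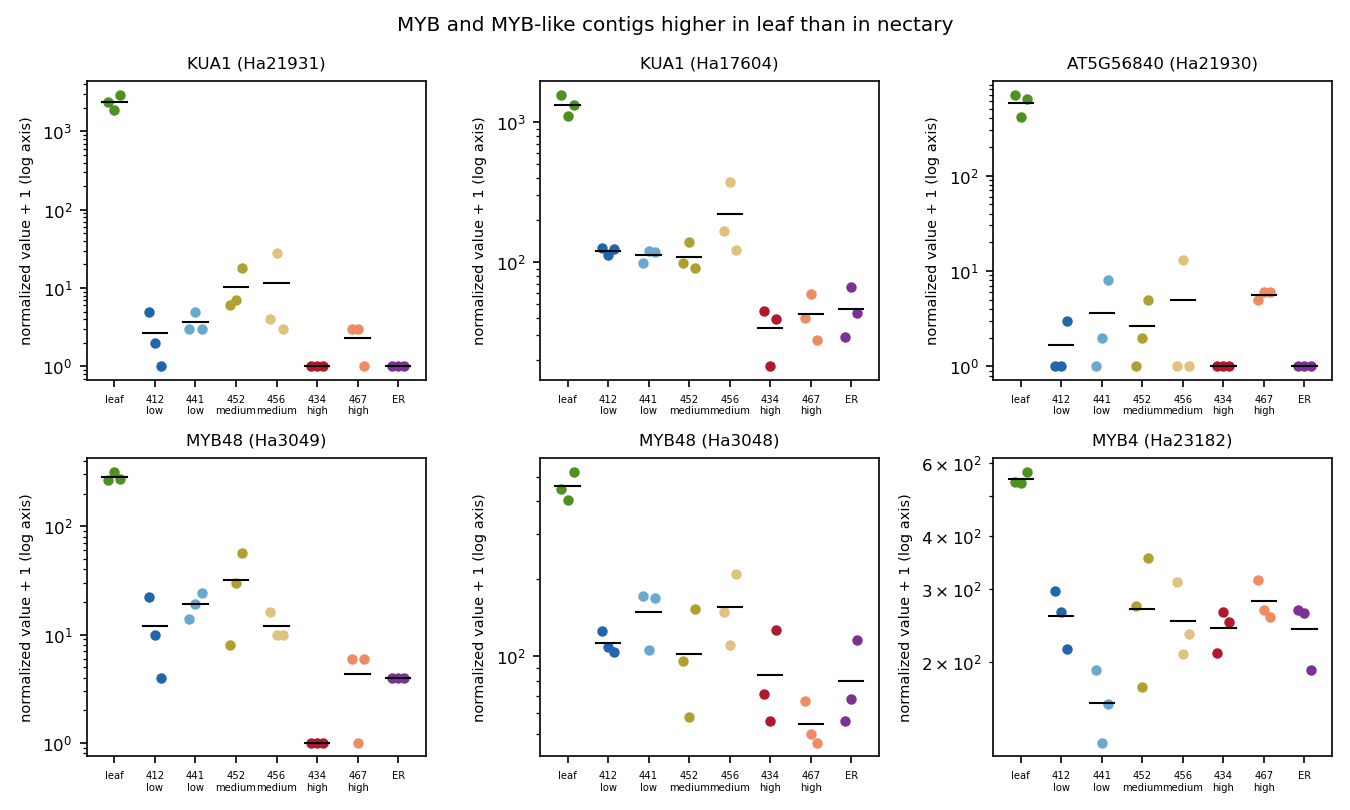
Points are the 3 libraries of each group and bars their means, as normalized value + 1 on a log axis, for 6 contigs (Ha, Helianthus) that are higher in leaf. KUA1 (Helianthus21931) and AT5G56840 lie at 27 and 12 units or less in every nectary library, and MYB4 (Helianthus23182) is the contig that runs opposite to MYB4 (Helianthus23186).

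Among the GARP proteins, HHO1 was higher in nectary and 2 of 3 PHL7 contigs were lower. HHO1 is a repressor in nitrate and phosphate signalling, and PHL7 a relative of the phosphate starvation regulator PHR1. HHO1 (Helianthus13300) had 9, 33 and 10 units in leaf and 101, 152 and 125 in line 434, with no overlap (3.01 ± 0.41 log2 units (SE), adjusted p = 2.5542e-06). The PHL7 contigs Helianthus13814 and Helianthus13813 were lower, with log2 differences of -0.87 and -0.48 (adjusted p = 0.0013191 and 0.035354), and the latter lost its call with any of 5 libraries left out. The 3 HHO3 contigs did not pass the test, and leaf itself ranged from 38 to 350 units for contig Helianthus13299. With ER in place of line 434, Helianthus27463 was called lower (-1.434, adjusted p = 0.01261), and after rescaling by median ratio Helianthus10591 was (-2.57, adjusted p = 0.02103). AT5G06800 (Helianthus36125), at 278 to 376 units in leaf and 208 to 285 in line 434, and the PHL7 contig Helianthus13812 were not called. With ER, at 111, 111 and 156 units, AT5G06800 was called lower than in leaf (-1.38, adjusted p = 0.00614), while the call of PHL7 Helianthus13813 was lost (-0.331, adjusted p = 0.1347).

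Of the 7 chromatin and co-factor contigs, 2 were called higher in nectary. AT3G11450 encodes a J-domain protein that binds ubiquitinated histone, and its contig Helianthus8780 had 156, 92 and 87 units in leaf and 250, 235 and 234 in line 434 (1.15 log2 units, adjusted p = 0.00070852). SWC4, a subunit of the SWR1 chromatin remodelling complex, differed by 0.74 log2 units for contig Helianthus37612 (adjusted p = 0.017851). The other SWC4 contig, both AT4G11400 contigs, the second AT3G11450 contig and AT5G06110 were not called. Of the contigs named myb-like protein X, AT5G43490 (Helianthus33970) differed by 0.61 log2 units (adjusted p = 0.013406), and the AT4G33740 contig Helianthus38813 missed the threshold (-0.58 log2 units, adjusted p = 0.063502). After rescaling by median ratio, the median of all contigs moved from 0.476 to 0.014, and the MYB contigs split into 10 higher and 18 lower. Shares of all contigs called in each direction after rescaling were not computed, so this split is not read as a trait of MYB contigs. Under the rescaling SWC4, AT5G43490 and MYB62 lost their calls. Calls as lower were gained by AT4G33740 (Helianthus38813; -1.05, adjusted p = 0.004565) and AT4G11400 (Helianthus15402; -0.938, adjusted p = 0.0334). AT3G11450 (Helianthus26017; -0.652, adjusted p = 0.02866) gained one too, as did MYBD and HHO3 (Helianthus10591), given above. MYB44 (Helianthus16510) kept 3.55 log2 units, MYB73 3.90, MYB77 6.14, MYB4 (Helianthus23186) 4.78, MYB15 5.49, HHO1 2.57 and AS1 1.21, each still called.

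Nectaries of the high nectar lines 434 and 467 were then compared with those of the low lines 412 and 441. MYB73, AS1, MYB44 (Helianthus16510), MYB15, MYB32, MYBD and MYB4 (Helianthus23186 and Helianthus23206) were higher in the high lines. KUA1 (Helianthus17604), MYB17 (Helianthus4982), MYB48 (Helianthus3048 and Helianthus3049) and both contigs matching AT4G33740 were lower, with HHO3 (Helianthus10591), AT5G06800 and AT4G11400 (Helianthus26820). That is 17 of 43 contigs tested (39.5%), beside 31.2% of all 38457 contigs, of which 8 were higher (12.3% of all contigs) and 9 lower (18.9% of all contigs). The 6 libraries of both classes did not overlap for 10 contigs, or 23.3%, against 16.2% of all contigs. AT4G11400 (Helianthus26820) was not among them. Its high line 434 had 33, 38 and 18 units, overlapping 36, 74 and 38 in line 412, while line 467 had 0, 0 and 0. The other HHO3 contigs, Helianthus13299 and Helianthus27463, were not called. Summed over its contigs, HHO3 was not called either (-0.168 log2 units, adjusted p = 0.7172). The medians were 0.038 log2 units for the MYB contigs and -0.008 for all. KUA1 Helianthus21931 and AT5G56840 fell under the minimum mean in nectary and were not tested. A class is made of no more than 2 lines. When lines rather than libraries were the unit, limma called 0 of the 43 (14 at an unadjusted p under 0.05), and 300 of all 38457 contigs. The share of all contigs at that unadjusted threshold was not computed.

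MYB73 had 1056, 740 and 978 units in line 434 and 873, 890 and 536 in line 467. In the low lines it had 411, 439 and 363 (line 412) and 397, 284 and 317 (line 441). All 6 libraries of the high lines lay above all 6 of the low lines, at 845.5 ± 185 against 368.5 ± 59 units (SD, n = 6 each). The difference was 1.18 ± 0.30 log2 units (SE, adjusted p = 0.0057963; 0.1034 with the line as the unit). MYB44 (Helianthus16510) had 2174, 3166 and 2127 units in line 467, 1372, 1459 and 1476 in line 412 and 1773, 1511 and 1618 in line 441. Its classes also did not overlap, with line 434 as given above, and they averaged 2564 and 1535 units (0.73 ± 0.17 log2 units (SE), adjusted p = 0.0027544; 0.1735 with the line as the unit). MYB77 and MYB44 Helianthus30118 overlapped between the classes and were not called (0.43 and 0.49 log2 units, adjusted p = 0.20627 and 0.29992).

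AS1 was higher in both high lines, at 3859, 3720 and 3305 units in line 467 beside 2502 to 3046 in line 434. The low lines had 1622, 2302 and 2040 (line 412) and 1523, 1646 and 1731 (line 441). Means were 3226 ± 510 and 1811 ± 299 units (SD, n = 6 each), without overlap, and the difference was 0.83 ± 0.17 log2 units (SE, adjusted p = 0.0012133; 0.194 with the line as the unit). MYB15 averaged 106.5 ± 20.3 units in the high and 65.5 ± 14.7 in the low lines (SD, n = 6 each), again without overlap (0.71 log2 units, adjusted p = 0.0078524).

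The phenylpropanoid repressors were higher in the high lines for 3 of 6 contigs and lower for none, beside 12.3% and 18.9% of all contigs. All of the 6 except MYB32 match MYB4. Summed over its contigs, MYB4 was higher by 0.458 log2 units (adjusted p = 0.001143 from limma). MYB32 (Helianthus23201) had 64, 77 and 92 units in line 434, 69, 70 and 89 in line 467, 24, 27 and 32 in line 412 and 18, 23 and 4 in line 441. The classes were clearly apart, and the difference was 1.99 log2 units with a constant of 1 (adjusted p = 0.0084018) and 1.75 with 5. MYB4 (Helianthus23186) differed by less, at 1638 ± 71 against 1210 ± 151 units (SD, n = 6 each), or 0.44 log2 units (adjusted p = 0.0032124; 0.3884 with the line as the unit). MYB4 (Helianthus23206) differed by 0.78 log2 units (adjusted p = 0.0065252), but 299 units in replicate 1 of line 412 exceeded all 6 high libraries. MYB32 was named after its values were seen.

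Lower in the high lines was MYB17, which acts in floral meristem identity. Its contig Helianthus4982 had 94, 81 and 87 units in line 434 and 65, 107 and 115 in line 467. The low lines had 704, 229 and 247 (line 412) and 163, 210 and 204 (line 441). No high library reached a low one, and the difference was -1.5 ± 0.29 log2 units (SE, adjusted p = 0.00059526; 0.1539 with the line as the unit). Its second contig, Helianthus41830, was not called (-0.41 log2 units, adjusted p = 0.1575).

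KUA1 (Helianthus17604), the leaf-rich contig, had 44, 17 and 38 units in line 434 and 39, 58 and 27 in line 467. In the low lines it had 125, 111 and 123 (line 412) and 98, 120 and 117 (line 441). The classes did not overlap, with means of 37.2 ± 14.1 units in the high and 115.7 ± 9.95 in the low lines (SD, n = 6 each) and a difference of -1.70 ± 0.30 log2 units (SE, adjusted p = 0.00023632; 0.1246 with the line as the unit). The summed mesophyll markers also did not overlap, at 155 to 902 units in the high and 1213 to 1841 in the low lines, with 6 of 11 tested marker contigs lower and none higher. Their part in the KUA1 and MYB48 differences was not tested. In leaf itself, KUA1 (Helianthus17604) stood at 1117 to 1566 units beside mesophyll sums of at least 580966. KUA1 (Helianthus39155) and KUA1 (Helianthus38582) were not called in this comparison (-0.28 and -0.38 log2 units, adjusted p = 0.36524 and 0.3619). Summed over its contigs, KUA1 was not called (-0.48 log2 units, adjusted p = 0.07175).

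MYB48 (Helianthus3048) was lower in the high lines (-0.97 log2 units, adjusted p = 0.0096615), and the classes overlapped through 125 units in replicate 3 of line 434. MYB48 (Helianthus3049) had 0, 0 and 0 units in line 434, 5, 0 and 5 in line 467, 21, 9 and 3 in line 412 and 13, 18 and 23 in line 441, which overlapped at the low end. MYBD averaged 1334 ± 219 units in the high and 953.8 ± 136 in the low lines (SD, n = 6 each), or 0.48 log2 units (adjusted p = 0.018842). Its call was lost without replicate 3 of line 441 (adjusted p = 0.05969) or replicate 1 of line 467 (adjusted p = 0.05416).

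**Figure D4:**
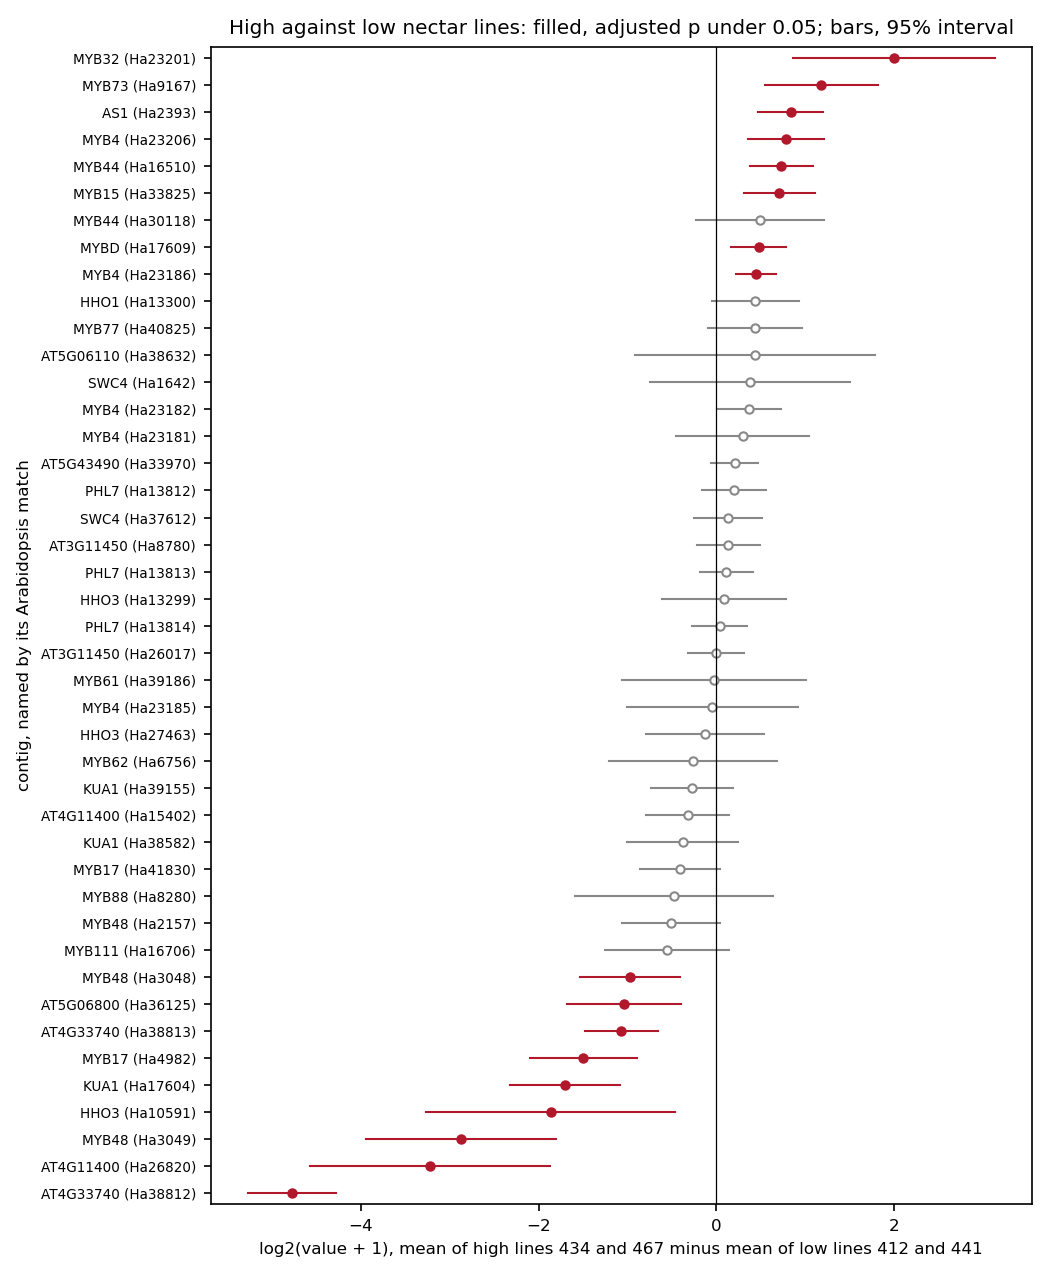
Each row is 1 of the 43 contigs tested (Ha, Helianthus), placed by the difference in mean log2(value + 1) between the 6 libraries of high lines and the 6 of low lines. Bars are 95% intervals from limma over libraries, filled points have an adjusted p under 0.05, and 8 filled points lie to the right of 0 and 9 to the left.

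A contig matching AT4G33740, a protein of unknown role described as myb-like protein X, was listed at 0 in both high lines and above 0 in every other nectary line. Contig Helianthus38812, named after its values were seen, had no units in any of the 6 libraries of the high lines or the 3 of leaf. It had 38, 44 and 52 units in line 412, 17, 12 and 18 in line 441, 32, 37 and 63 in line 452, 57, 30 and 62 in line 456 and 13, 18 and 18 in ER. High against low had an adjusted p of 3.3168e-11 over libraries and of 0.05788 with the line as the unit. Between the low lines, 412 was higher than 441 by 1.46 log2 units (adjusted p = 0.0090408).

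The neighbouring contig Helianthus38813 shares the Arabidopsis and UniRef match of Helianthus38812. It had 128, 221 and 177 units in line 434 and 222, 333 and 222 in line 467. In line 412 it had 348, 451 and 445 and in line 441 523, 493 and 399, all above the high lines, whose highest library reached 333. The difference was -1.07 ± 0.20 log2 units (SE, adjusted p = 0.0003763). In leaf it was present at 281, 223 and 269 units, where Helianthus38812 was at 0.

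Few MYB contigs were called in the medium lines 452 and 456 against the low lines. Of the 43 contigs, 4 (9.3%) were called, beside 14.7% of all contigs, with 2 higher (5.68% of all contigs) and 2 lower (8.99% of all contigs). At an unadjusted p under 0.05 there were 11 (25.6%, beside 29.2% of all contigs), and none was without overlap (2.61% of all contigs). MYB4 (Helianthus23186) and AT4G33740 (Helianthus38812) were higher by 0.49 and 0.74 log2 units (adjusted p = 0.0032241 and 0.041152). HHO1 was lower (-1.07 log2 units, adjusted p = 0.0034951), and AT4G11400 (Helianthus26820) was the other lower contig. The count was 7 without replicate 1 of line 452, 10 without its replicate 2, and 7 without replicate 2 of line 456. Without replicate 3 of line 452 and replicate 2 of line 456 together it was 10. Shares of all contigs called in these fits are not given here, so these moves are not read as a trait of MYB contigs.

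Against the medium lines, 15 contigs (34.9%) were called in the high lines, beside 43.8% of all contigs, and 10 did not overlap (14% of all contigs). Of these, 7 were higher (23.8% of all contigs) and 8 lower (20% of all contigs). This comparison shares its high libraries with that against the low lines, so the values stand side by side and are no second test. AS1 was higher by 1.18 log2 units (adjusted p = 5.3749e-05), MYB15 by 1.03 (adjusted p = 0.00041109) and HHO1 by 1.5 (adjusted p = 8.5241e-05). AS1 had 1840, 1118 and 886 units in line 452 and 2105, 1200 and 1727 in line 456, all under the lowest high library of 2502.

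KUA1 (Helianthus17604) was lower than in the medium lines (-2.03 log2 units, adjusted p = 4.764e-05), as was MYB17 (Helianthus4982; -1.61 log2 units, adjusted p = 0.00032342). Summed over its contigs, KUA1 was called lower here (-0.624 log2 units, adjusted p = 0.02032). Replicate 2 of line 456, which had the mesophyll marker sum of 6221, held the highest KUA1 (Helianthus17604) value in nectary, 373 units. The second MYB17 contig, Helianthus41830, was also lower (-1.04 log2 units, adjusted p = 0.0011009). Also higher in the high lines were MYB32, MYB4 (Helianthus23206), AT5G43490 and a SWC4 contig, by 0.38 to 1.66 log2 units, and the other lower contigs were those of MYB48 (Helianthus3048 and Helianthus3049), AT4G33740 and AT4G11400 (Helianthus15402). The MYB32 call rested on an adjusted p of 0.042889 and was lost with most libraries left out. MYB73 and MYB44 were not called here. With the line as the unit, 1 contig passed, AT4G33740 (Helianthus38812, adjusted p = 0.03853).

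Lines of the same class were compared to show how far contigs vary under one label. Between lines 434 and 467, 2 of 43 contigs were called, or 4.65%, beside 10.4% of all contigs. MYB48 (Helianthus2157) was lower in line 434 (-1.62 log2 units, adjusted p = 0.0061625), at 17, 13 and 35 against 82, 67 and 46 units. AT4G11400 (Helianthus26820), named after its values were seen, was the other. Between lines 412 and 441, 2 contigs (4.65%) were called, beside 5.98% of all contigs, and between 452 and 456 there were 4 (9.3%), beside 11.6%. In the latter, MYB4 (Helianthus23186) was lower in line 452 (-0.56 log2 units, adjusted p = 0.016947), a call lost without replicate 1 of line 452 or replicate 2 of line 456. MYB17 (Helianthus41830) was higher in line 452 by 1.12 log2 units (adjusted p = 0.018428), a call lost without replicate 1 of line 452 or replicate 1 or 3 of line 456.

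MYB77 split both the low and the medium class. It had 360, 155 and 163 units in line 412 and 51, 42 and 48 in line 441, a difference of 2.13 ± 0.35 log2 units (SE, adjusted p = 0.00043763). In line 452 it had 312, 334 and 374 units and in line 456 only 42, 33 and 47 (3.04 ± 0.35 log2 units (SE), adjusted p = 4.8143e-06). Neither pair overlapped. The high lines, at 87 to 228 units, lay above lines 441 and 456 and below line 452, and overlapped with line 412. By line means MYB77 was ordered 452, 412, ER, 434, 467, 441 and 456, at 340, 226, 179.3, 162.3, 118.7, 47 and 40.7 units, and the libraries overlapped between all neighbours in this order except 467 and 441.

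AT4G11400 (Helianthus26820), which matches a protein with ARID, ELM2 and MYB-like domains, was present in lines 412, 441 and 434, at 18 to 74 units. It was listed at 0 in all libraries of lines 456 and 467 and at 4, 0 and 2 units in ER. In line 452 it had 37, 22 and 0 units, the last in the library with the most contigs at 0. Its other contig, Helianthus15402, had 18 to 68 units in every nectary library. HHO1 was highest in line 467, at 208, 230 and 263 units, and lowest in line 456, at 76, 29 and 47.

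Over all 7 nectary lines, limma's moderated F test called 20 of 43 contigs (46.5%), beside 50.6% of all contigs. The largest F statistics were those of AT4G33740 (Helianthus38812) at 112.1, MYB77 at 19.95 and AT4G11400 (Helianthus26820) at 15.6, followed by KUA1 (Helianthus17604) at 11.4 and HHO1 at 10.6. Summed over its contigs, KUA1 was not called by the F test (adjusted p = 0.1715). By class, the F test called 13 of 21 R2R3 contigs, 1 of 4 single-repeat contigs tested, 2 of 8 GARP, 2 of 7 chromatin and co-factor and 2 of 3 myb-like protein X contigs.

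**Figure D5:**
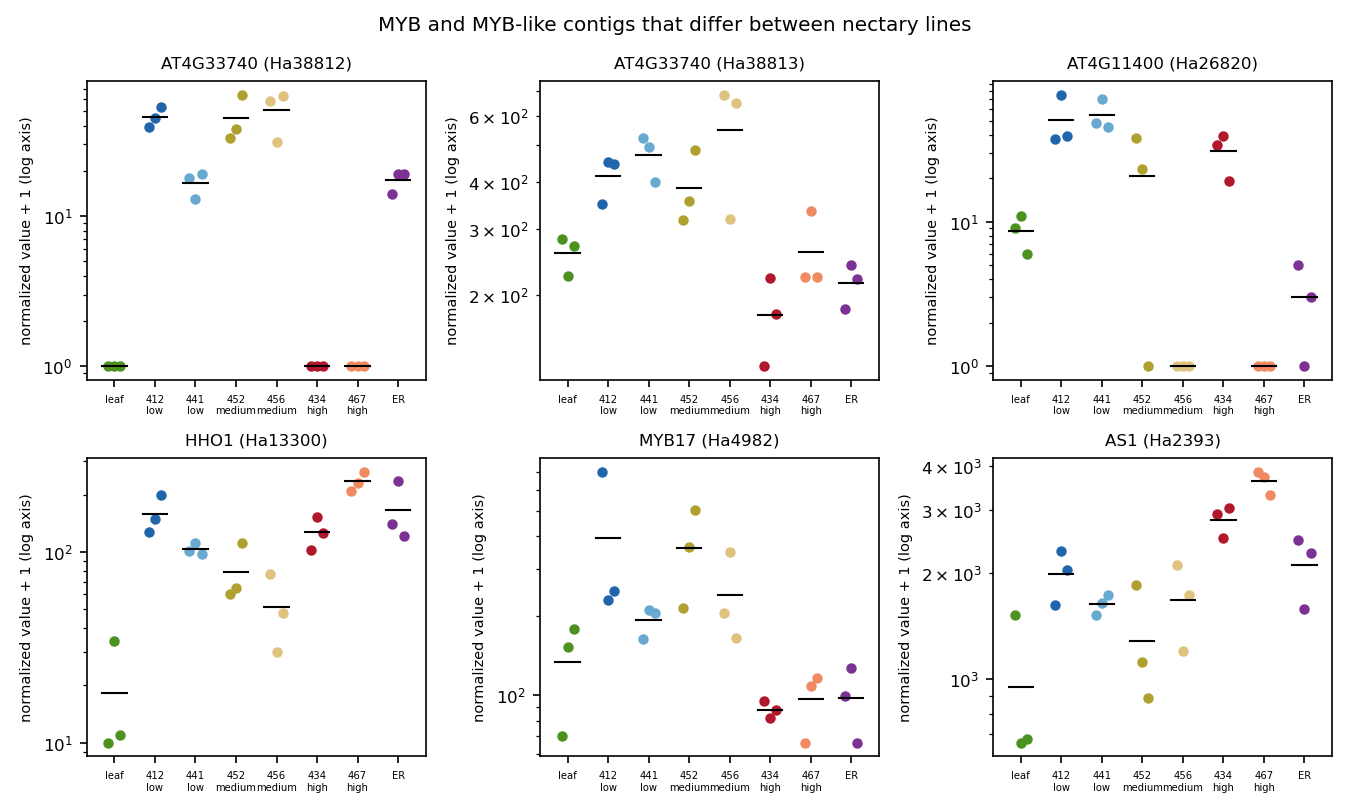
Points are the 3 libraries of each group and bars their means, as normalized value + 1 on a log axis, for 6 contigs (Ha, Helianthus). AT4G33740 (Helianthus38812) lies at 0 units in leaf and in both high lines, AT4G11400 (Helianthus26820) at 0 in lines 456 and 467, and MYB17 is lower and AS1 higher in both high lines than in both low lines.

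Enzymes of the pathways that MYB factors control in Arabidopsis were counted from lists of matches. Of the monolignol (lignin precursor) enzymes, which MYB4 and MYB32 repress, 31 contigs were tested in high against low lines, and 14 were higher and 4 lower, beside 12.3% and 18.9% of all contigs. Their median was 0.97 log2 units, beside -0.008 for all contigs. The COMT1 contig Helianthus10256, an O-methyltransferase of this route, stood at 2694 ± 930 units in the high and 740.8 ± 110 in the low lines (SD, n = 6 each; 1.80 log2 units, adjusted p = 9.415e-07). The F5H contig Helianthus30697, of the syringyl branch, ran the opposite way, at 2253 ± 507 and 8106 ± 3134 units (SD, n = 6 each; -1.78 log2 units, adjusted p = 9.385e-07). Summed over the list, line 412 had 27845 to 31817 units and line 441 17645 to 19804, beside 28831 to 36099 in the high lines, so the sum did not separate the classes. Summed xylem markers did not separate the classes either, at 17 to 34 units in line 434, 33 to 47 in line 441, 889 to 2219 in line 467 and 936 to 1304 in line 412.

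In the nectary of line 434 against leaf, 11 of 32 monolignol contigs were higher and 8 lower, close to the 39.6% and 22% of all contigs, with a median of 0.24 log2 units beside 0.476 for all. The same shares of all contigs are the background of the other lists. Of 6 flavonoid and anthocyanin contigs, 3 were higher and 2 lower than in leaf. The most abundant was F3PH (Helianthus27324), the flavonoid 3-prime hydroxylase, at 4839 ± 202 against 239 ± 167 units (SD, n = 3 each; 4.79 log2 units, adjusted p = 6.828e-08), while DFR (Helianthus22040), of the anthocyanin branch, was lower (-3.80 log2 units, adjusted p = 0.0007096). In high against low lines 1 of these 6 passed, FLS1 (Helianthus823), the flavonol synthase, at 8.17 ± 5.53 against 56.3 ± 16.2 units (SD, n = 6 each; -2.89 log2 units, adjusted p = 1.873e-05).

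Cuticle and wax enzymes had 6 of 11 contigs higher and 3 lower in nectary than in leaf, and 2 higher and 2 lower of 10 in high against low lines, where 12.3% and 18.9% of all contigs were. TTG1, the WD40 partner of R2R3 factors, has 2 contigs, of which 1 was higher than in leaf (Helianthus22048, 1.77 log2 units, adjusted p = 0.001285) and the other higher in the high than in the low lines (Helianthus22051, 0.83 log2 units, adjusted p = 0.0002468). Of 6 contigs of mitotic genes that MYB proteins with more repeats control, 4 were higher in nectary than in leaf, and in high against low lines 2 were higher and 2 lower.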

How the data were processed

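RNA was sequenced in 24 libraries, 21 of floral nectary and 3 of leaf. Per the file headers, the authors scaled each library to its upper quartile and deposited the result, a score in whole numbers (the header of ER replicate 3 does not name the step). No source used here gives the assembler, the aligner or the counting tool. Arabidopsis and UniRef matches were those of the deposited table, in which 18797 contigs have an Arabidopsis match. That table also has 16 columns of means and SDs per group, which were left aside. Because the values are not counts, no count model was used. Reads per library were estimated from the spacing of low values, a step tested on 8 simulated libraries with a largest error of 0.028%.

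Values were taken as log2(value + 1), which understates differences of low contigs. A contig was tested if its mean in the fitted libraries reached 10. The model was limma 3.58.1 (R 4.3.3) with a mean for each group and a mean-variance trend in the empirical Bayes step. Benjamini-Hochberg adjustment ran over all contigs tested, with calls at an adjusted p under 0.05. Leaf comparisons used 24 libraries and nectary comparisons 21. Figures and read estimates used Python 3.11.15 with numpy 2.4.6, pandas 2.3.3 and matplotlib 3.10.9. The procedure was tested on simulated data, 2 runs with 200 altered contigs and the same assumed spread between pools for all contigs. It recovered 83% of 2-fold and 100% of 4-fold changes for high against low lines (38447 contigs), and 39% and 100% for line 434 against leaf (38444 contigs). Of the calls, 5.3% and 8.7% were false, the latter above the nominal level. Altered contigs were drawn only from those with a nectary mean some way above the minimum of 10. Simulated leaf libraries were built from nectary means. The shares recovered therefore do not cover contigs near the minimum or a leaf profile.

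The members and lists were chosen with earlier results of these data known. Contigs were named by rule: the 12 with the highest nectary mean, the 10 largest called changes in each direction for leaf and for high against low (4 for the other comparisons) among those without overlap and with a mean of at least 100, the most abundant contig of each role, and the 6 largest F statistics. This gave 65 namings of 30 contigs. Others were named where a count or a shared match made them needed. Same-numbered libraries of different groups were checked for pairing. Alternatives were an added constant of 5, a minimum mean of 50 or none, median-ratio rescaling, a replicate block, fits on the compared groups alone, the line as the unit, other nectary lines against leaf, sums over contigs with the same match, and fits without each single library. Omitting replicate 3 of line 452 and replicate 2 of line 456 from every comparison was added after the data were seen.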

Additional observations from a re-analysis of the deposited data

Results flagged for a closer look

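There were 90 sets of 6 libraries, for 30 named contigs in each of 3 nectar classes. In 10 sets a library's gap to the nearest other exceeded Dixon's 95% critical value. Chance gives this in about 1 of 20 sets drawn from a single normal population. These sets join 2 lines and hold raw values, some near 0, so the number of flags is not compared with chance. Replicate 2 of line 456 stood out in 3 of the 10. In this pool KUA1 (Helianthus17604) had 373 units, beside 90 to 167 in the other medium libraries. AT5G06800 (Helianthus36125), a GARP protein, had 810 units there, beside 148 to 298. AT5G56840 (Helianthus21930) had 12 units there, beside 0 to 4. The same pool held the mesophyll marker sum of 6221 units, and the part of leaf-type tissue in these values was not tested.

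In the low lines, replicate 1 of line 412 had 704 units of MYB17 (Helianthus4982), beside 163 to 247. Replicate 3 of line 441 had 7 units of AT5G56840 (Helianthus21930), beside 0 to 2. In the high lines, replicate 3 of line 434 had 179 units of MYB44 (Helianthus30118), beside 61 to 89, and 125 units of MYB48 (Helianthus3048), beside 45 to 70. Replicate 2 of line 467 had 914 units of MYBD (Helianthus17609), beside 1301 to 1507, and replicate 3 had 294 units of AT3G11450 (Helianthus8780), beside 234 to 250. In the medium lines, replicate 3 of line 452 had 0 units of MYB88 (Helianthus8280), beside 9 to 14.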

How the results depend on the processing

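Of 731 values under an alternative, for contigs in the comparisons that named them, 669 kept their direction and their side of the threshold, 37 lost a call, 18 gained one and 7 changed sign, all 7 uncalled differences. Outside these, the called MYB17 difference against leaf (Helianthus41830) changed sign with ER, to 0.066. Among the 731, fits without a single library entered only by their lowest and highest value for each contig and comparison. Calls lost in other such fits, as for MYB32 in high against medium, are therefore not all counted. With the mean of the 7 lines against leaf, AT4G33740 (Helianthus38813) was at 0.323 and MYB17 (Helianthus4982) at 0.448. With single libraries left out, MYBD (Helianthus17609) ranged from -0.256 to 0.021 against leaf, and PHL7 (Helianthus13813) from -0.026 to 0.197 and MYB61 (Helianthus39186) from -0.225 to 0.106 in high against low. AT4G11400 (Helianthus26820) ranged from -0.006, without replicate 3 of line 452 (alone or with replicate 2 of line 456), to 1.306 in high against medium.

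The number of MYB contigs called moved by over 1.5 times as follows. With the line as the unit it was 0 for high against low, 0 for medium against low and 1 for high against medium (14, 2 and 12 at an unadjusted p under 0.05). Shares of all contigs at that unadjusted threshold were not computed for these fits. Summing contigs of a match, which leaves fewer items, gave 16 against leaf, 2 for medium against low and 1 for each comparison within a class. A minimum mean of 50 gave 2 for medium against low, 0 for 434 against 467 (1 unadjusted) and 1 for 412 against 441. Fits on the compared groups alone gave 5, 1 and 4 for 434 against 467, 452 against 456 and 412 against 441. Without replicate 3 of line 452 and replicate 2 of line 456 together, it was 10 for medium against low and 9 for 452 against 456, and without replicate 3 of line 452 it was 5 for 412 against 441. The cause of these moves was otherwise not tested. Shares of all contigs called in these fits, and in those with libraries left out below, are not given beside the counts. The moves are therefore not read as a trait of MYB contigs.

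With libraries left out, counts ranged from 23 to 32 against leaf, 15 to 18 for high against low, 3 to 10 for medium against low, 12 to 18 for high against medium, 2 to 3 for 434 against 467, 2 to 6 for 452 against 456 (2 without replicate 1 or 3 of line 456, 6 without its replicate 2), 1 to 5 for 412 against 441 (1 without replicate 2 of line 441) and 17 to 25 over the 7 lines.

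Replicate numbers did not pair the libraries. Of 84 same-numbered pairs, 10 correlated above 0.1 (range -0.287 to 0.26), and in 0 of 28 group pairs did every pair do so. A replicate block left the counts at 26, 17, 4, 15, 2, 4 and 2 for the 7 comparisons in the order above, and gave 23 in place of 20 over the 7 lines. In simulation with 3 pools a group, 19% of 1.5-fold differences were recovered for high against low and 3% against leaf. Those runs altered 200 contigs and gave all contigs the same assumed spread. In the data 31.2% and 61.6% of all contigs were called, which makes the adjusted threshold less strict. The simulated shares therefore do not carry over, and MYB4 (Helianthus23186) and MYBD were called in high against low at differences under 1.5-fold.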
